A study of Mus musculus with 4 samples.

Results

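Potassium channel genes were measured in the ventral midbrain of male mice without REV-ERBα (RKO, labelled as a Rev-erba knock-out) and of wild-type mice (WT), with 2 arrays in each group. The 54 genes were taken from a list of symbols, among 19938 genes with a probe set annotated to 1 symbol, and each was represented by its probe set of highest mean over the 4 arrays. All animals had a C57BL/6J background and an age of 10 to 15 weeks. They had been entrained for more than 10 days to a cycle with 12 h of light and had then spent 2 days in constant darkness. The labels call the replicates biological; not given in the sources used here are the number of mice behind an array, the clock hour of collection and the deleted part of the gene. The comparison asks which channel transcripts differ in this tissue without REV-ERBα, a clock-driven nuclear receptor that represses transcription. Of the 54 genes, 52 lay above the 40th percentile of all probe sets (an intensity of 167) and were tested. Kcna5, a Kv1 subunit, and Kcnj4, a strong inward rectifier, lay below it.

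Potassium channels let potassium leave the cell and so set the resting potential, repolarise the action potential and time the next one. Voltage-gated (Kv) channels open on depolarisation, calcium-activated and sodium-activated channels open after spikes, and inward rectifiers (Kir) and K2P leak channels hold the membrane near rest. In the midbrain the pacemaking of dopamine neurons depends on several of them, among them Kv4 with its KChIP subunits, small-conductance calcium-activated (SK) channels and the Kir3 channels that dopamine autoreceptors open. In astrocytes Kcnj10 carries potassium away from active synapses.

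Of the 52 tested genes, 3 (5.77%) passed an adjusted p under 0.05 in limma, beside 1.60% of all tested genes. With no filter on dim probe sets, 0 of the 54 genes passed. The glial inward rectifier Kcnj10 rose 1.22-fold, while the epithelial inward rectifier Kcnj13 fell 1.29-fold and Kcnip2, a KChIP subunit of Kv4 channels, fell 1.23-fold. REV-ERBα binds AGGTCA half-sites, so the 250 bases before the annotated start of these genes are shown, together with those of Kcnj16, whose protein assembles with that of Kcnj10 and whose window holds AGGTCA. The sequences are RefSeq's (GRCm38.p6), read 5′ to 3′ on the gene's strand, at chr1:172340960-172341209 (plus strand) for Kcnj10, chr1:87394730-87394979 (minus strand) for Kcnj13, chr19:45816064-45816313 (minus strand) for Kcnip2 and chr11:110967783-110968032 (plus strand) for 1 of the 4 annotated starts of Kcnj16. Capitals mark AGGTCA or its reverse complement TGACCT.
Kcnj10: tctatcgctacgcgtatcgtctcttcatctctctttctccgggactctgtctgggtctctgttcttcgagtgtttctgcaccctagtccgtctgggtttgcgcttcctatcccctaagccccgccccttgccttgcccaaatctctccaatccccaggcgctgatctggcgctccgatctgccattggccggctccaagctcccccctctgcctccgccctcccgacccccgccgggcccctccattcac
Kcnj13: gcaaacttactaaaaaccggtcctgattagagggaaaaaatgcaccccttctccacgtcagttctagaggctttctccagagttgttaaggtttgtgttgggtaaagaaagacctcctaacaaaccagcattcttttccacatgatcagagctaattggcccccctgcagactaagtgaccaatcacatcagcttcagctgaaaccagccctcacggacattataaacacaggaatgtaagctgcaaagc
Kcnip2: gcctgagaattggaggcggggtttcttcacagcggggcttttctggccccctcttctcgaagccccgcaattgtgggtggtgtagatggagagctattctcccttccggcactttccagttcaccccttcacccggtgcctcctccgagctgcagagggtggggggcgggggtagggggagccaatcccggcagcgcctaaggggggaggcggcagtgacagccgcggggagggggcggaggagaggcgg
Kcnj16: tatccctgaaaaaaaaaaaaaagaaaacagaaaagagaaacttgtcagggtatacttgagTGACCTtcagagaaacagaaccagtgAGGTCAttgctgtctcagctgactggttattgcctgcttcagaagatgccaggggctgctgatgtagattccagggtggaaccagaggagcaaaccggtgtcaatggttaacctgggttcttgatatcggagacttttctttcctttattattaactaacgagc

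The windows of Kcnj10, Kcnj13 and Kcnip2 held 0 AGGTCA on either strand and 0 E-boxes (CACGTG, a palindrome bound by BMAL1 and CLOCK). That of Kcnj16, picked among its 4 windows because it holds the motif, had AGGTCA beginning 164 bases before the start. It also had TGACCT beginning 190 bases before the start, and the other windows of Kcnj16 held neither. RefSeq windows were at hand for 43 of the 54 genes, 66 windows in all. AGGTCA was present on either strand in 4 of these 66 (6.06%) and in 4607 of 32851 windows of all genes (14%). The 4 genes were Kcnj16, the EAG channel gene Kcnh1, the KChIP gene Kcnip4 and the leak channel gene Kcnk10. Their log2 differences were -0.12, -0.01, -0.08 and -0.05, and 0 of the 4 passed the test. CACGTG was present in 3 of the 66 windows (4.55%), against 6.02% of all windows. It was found for Kcnab1, a Kv-beta subunit, in 2 of its windows, and for the inward rectifier Kcnj2 in 1. These are matches of letters in a short window.

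The arrays were alike in scale, with median intensities of 236 to 240.1 over all probe sets. Over the tested genes the median was 540 in RKO replicate 1 and 559 in each of the others, so RKO replicate 1 stood apart. Nr1d1, which encodes REV-ERBα, had intensities of 2897 and 3099 in WT and 1259 and 1229.7 in RKO (log2 difference -1.27, SE 0.0641, limma adjusted p = 0.00486). This checks the labels only as far as its 1 probe set reports the deleted part. Some tissue markers differed between WT and RKO, where 0.640% of all tested genes were called higher and 0.964% lower. Of 9 tested leptomeningeal markers 6 were lower in RKO and 0 were higher. Of 9 thalamus markers 3 were lower and 0 higher, and of 9 dopamine neuron markers 4 were higher and 0 lower. Of 5 lateral hypothalamus markers 2 were lower, the neuropeptide genes Pmch (-1.14) and Hcrt (-0.52), and 0 higher. Of 2 tested glutamate neuron markers Slc17a7 (-0.34) was lower, and Slc17a6 (-0.09) did not pass. Of 7 GABA neuron markers 1 was higher, Gata3 (0.46), 0 were lower, and the median was 0.09. The summed intensity of the thalamus markers was 17833 to 18174 in WT and 14734 to 14883 in RKO, and the part of such tissue in the channel values was not tested. The dopamine neuron markers Th and Slc6a3 lay at 2168 or more in all arrays, far above the filter. A smaller number of cells of a type and less RNA per cell cannot be told apart in such bulk samples.

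The 3 genes that passed were 1 of 52 higher (1.92%) and 2 of 52 lower (3.85%). Over all 13587 tested genes 0.640% were higher and 0.964% lower, 1.60% in all, against 5.77% of the channel genes. An unadjusted p under 0.05 was reached by 11 channel genes (21.2%), where all genes gave 12.8%. Of these, 3 lay above 0 (5.77% of the 52, beside 5.90% of all genes) and 8 below (15.4%, beside 6.90%). RKO and WT arrays did not overlap for 34 channel genes (65.4%), with RKO above in 14 and below in 20. Over all genes that share was 41.8% (17.2% above and 24.6% below). Between the WT arrays the SD of the log2 difference was 0.0648 over the channel genes and 0.0998 over all tested genes. Between the RKO arrays these SDs were 0.0609 and 0.0929. The channel genes were also brighter, with median intensities of 735 to 799 by array, beside 540 to 559 over all tested genes. They were chosen with earlier results of these data known, so the shares describe the list and do not test it.

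The median difference of the channel genes was -0.02, beside -0.01 over all tested genes, and 31 of the 52 (59.6%) lay below 0, beside 56.8% of all genes. The size of the difference was under 0.1 on the log2 scale in 31 of the 52 (59.6%, against 76.3% of all genes). The median size was 0.08, beside 0.05 over all genes. The widest spread was from -0.37 for Kcnj13 to 0.29 for Kcnj10. The plot of all tested channel genes by family shows these as the 2 outer values, both within the group of Kir4, Kir5 and Kir7.

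**Figure D1:**
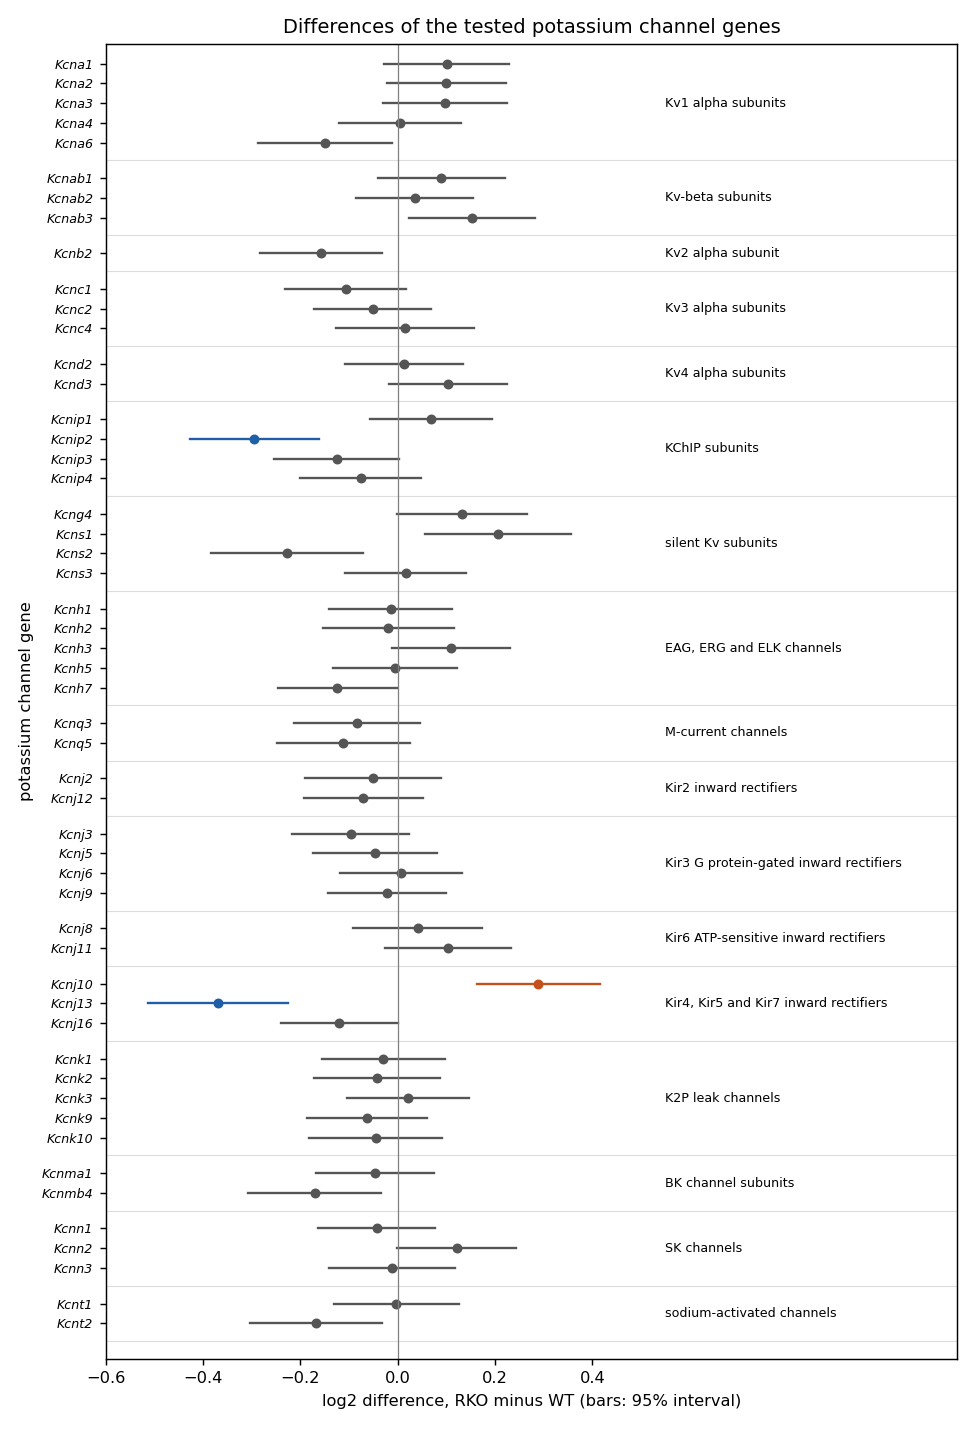
Log2 difference, RKO minus WT, of the 52 tested potassium channel genes (points) with limma's 95% interval (bars), grouped by channel family; orange marks the gene called higher, blue the genes called lower and grey the others. Kcnj10 (0.29) is the highest value, and Kcnj13 (-0.37) and Kcnip2 (-0.29) are the lowest, while most other intervals cross 0. The intervals of the called genes overlap those of genes not called, such as Kcns1 (0.06 to 0.36) and Kcns2 (-0.38 to -0.07).

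Kcnj10 encodes the main inward rectifier of astrocytes and oligodendrocytes. It was measured at 3262 and 3102 in the WT arrays and at 3923 and 3848 in the RKO arrays. Both RKO arrays lay above both WT arrays, and the arrays of a group differed less than the groups did (log2 difference 0.29, SE 0.0570, limma adjusted p = 0.0310). The call was lost with no filter on dim probe sets (adjusted p = 0.231) and without WT replicate 2 (0.0999), RKO replicate 1 (0.234) or RKO replicate 2 (0.113). Over all 11 alternatives the difference stayed between 0.25 and 0.33 and the adjusted p between 3.36e-07 and 0.234.

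Kcnj16, whose product forms heteromeric channels with that of Kcnj10 in glia, had intensities of 607 and 613 in WT and 561 and 562 in RKO. Both RKO arrays were lower, in the opposite direction to Kcnj10, but the gene did not pass (-0.12, 95% interval -0.24 to 0.00046, adjusted p = 0.392). The difference between these 2 genes was not tested. Kcnj9, a Kir3 gene that is the direct neighbour of Kcnj10 on chromosome 1, stood at -0.02 with overlapping arrays.

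Of 9 tested astrocyte markers 0 were higher and 2 lower beside the rise of Kcnj10, and their median was -0.06. Gja1, a gap junction connexin, lay at 0.22 without passing, while Gfap, an intermediate filament protein, was lower by -0.51 and Aldh1l1, a folate enzyme, by -0.31. The summed intensity of the 9 markers was 27752 to 28107 in WT and 28013 to 28356 in RKO, ranges that overlap, and 0 of the 9 lay below the filter. Aldoc and Slc1a2, with WT means of 10170 and 6128, weigh most in that sum. By gene, RKO lay above both WT arrays for 4 of the 9 and below both for 5, where 41.8% of all genes did not overlap. An unadjusted p under 0.05 was reached by 1 higher and 4 lower markers, beside 12.8% of all genes. Oligodendrocyte markers, which also bear on Kcnj10, all lay below 0 (7 tested, median -0.09, 1 called lower).

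Kcnj13 encodes an inward rectifier of choroid plexus and retinal pigment epithelium. It was measured at 911 and 992 in the WT arrays and at 707 and 766 in the RKO arrays. Both RKO arrays lay below both WT arrays (log2 difference -0.37, SE 0.0656, limma adjusted p = 0.0166). The call was lost with no filter (adjusted p = 0.198) and without WT replicate 2 (0.0521), RKO replicate 1 (0.206) or RKO replicate 2 (0.0559). Over all 11 alternatives the difference ran from -0.43 to -0.31 and the adjusted p from 1.19e-05 to 0.206.

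Markers of the choroid plexus and ependyma lay slightly above 0 beside the fall of Kcnj13. All 6 were tested with limma, 0 passed (0 also at an unadjusted p under 0.05), and their differences ran from 0.02 to 0.16. Ttr, the transthyretin of choroid plexus, had intensities of 6973 and 6634 in WT and 7421 and 7330 in RKO, above WT in both RKO arrays (0.12, adjusted p = 0.434). The summed intensity of the list was 7879 to 8168 in WT and 8632 to 8657 in RKO, and most of it was Ttr. The other markers of the list were dim, with WT means from 169 for Aqp1 to 334 for Kl, beside a filter at 167. RKO lay above both WT arrays for 2 of the 6, beside 17.2% of all genes, and the arrays overlapped for 4. The leptomeningeal markers were lower beside Kcnj13, with a median of -0.41 over the 9 tested, 6 called lower, and a summed intensity of 5168 to 5297 in WT and 3996 to 4045 in RKO. Among them Ogn, a proteoglycan, stood at -1.11, Islr at -0.76 and the sulfate transporter Slc13a4 at -0.66. The collagen genes Col1a1 (0.13) and Col1a2 (0.07) of the same list did not pass, and Lum lay below the filter in all 4 arrays. The part of leptomeningeal tissue in the Kcnj13 value was not tested.

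**Figure D2:**
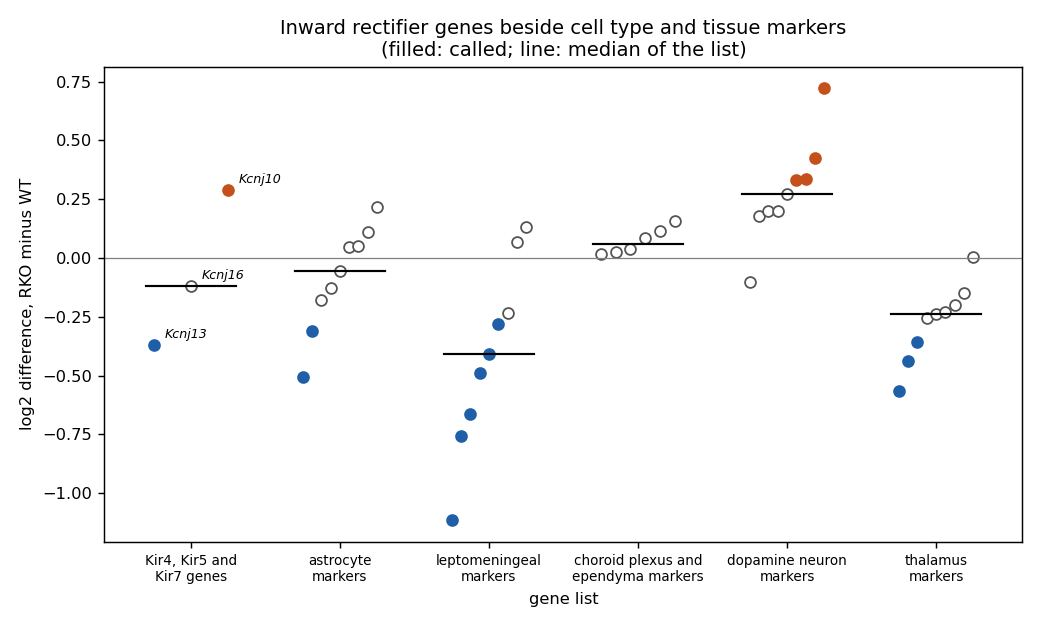
Log2 difference, RKO minus WT, of Kcnj10, Kcnj13 and Kcnj16 beside the tested markers of 5 cell types or tissues; each point is a gene, filled points passed an adjusted p under 0.05 (orange higher, blue lower) and black lines are medians. The tested leptomeningeal markers run from -1.11 to 0.13 and the choroid plexus and ependyma markers from 0.02 to 0.16, beside Kcnj13 at -0.37, and Kcnj10 (0.29) lies above the highest astrocyte marker (0.22).

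The KChIP subunits are calcium-binding proteins that bring Kv4 channels to the membrane and shape their A-type current. Kcnip2, best known from the transient outward current of the heart, had intensities of 287 and 302 in WT and 233 and 248 in RKO. Both RKO arrays lay below both WT arrays (log2 difference -0.29, SE 0.0600, limma adjusted p = 0.0365). The gene lies below the 60th percentile and was not tested under that filter. The call was lost with no filter (adjusted p = 0.252) and without WT replicate 2 (0.101), RKO replicate 1 (0.316) or RKO replicate 2 (0.0859). Over its 10 alternatives the difference ran from -0.34 to -0.25 and the adjusted p from 0.00238 to 0.316.

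The other KChIP genes did not pass. Kcnip3, a Kv4 partner of dopamine neurons that also binds DNA under the name DREAM, had intensities of 3477 and 3548 in WT and 3118 and 3324 in RKO, lower in both RKO arrays (-0.13, 95% interval -0.25 to 0.0033). Kcnip4 (-0.08) was lower and Kcnip1 (0.07) higher in both RKO arrays. Of the Kv4 pore subunits, Kcnd1, which is not among the 54 genes, stood at 0.02. Among the members the difference was 0.01 for Kcnd2, with overlapping arrays, and 0.10 for Kcnd3, the Kv4 subunit of dopamine neurons, where both RKO arrays (1184 and 1164) lay above WT (1097 and 1088). Dpp6 and Dpp10, transmembrane partners of Kv4 that are not among the 54 genes, lay at -0.07 and -0.17, and Dpp10 had an unadjusted p of 0.0149 (adjusted p = 0.237). Within the Kv4 complex, put together here after the values were seen, 1 of 9 genes passed and 5 of the 9 lay below 0, where 1.60% of all genes passed and 56.8% lay below 0.

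Kv1 channels sit along axons and limit repetitive firing, and their Kv-beta subunits bind inside the cell. Of 5 tested Kv1 genes and 3 Kv-beta genes, 0 passed (2 at an unadjusted p under 0.05, beside 12.8% of all genes). Kcna1 (0.10), Kcna2 (0.10) and Kcna3 (0.10) lay higher in both RKO arrays, as did Kcnab1 (0.09), Kcnab2 (0.03) and Kcnab3 (0.15). Kcnab3 had intensities of 1122 and 1079 in WT and 1189 and 1258 in RKO (adjusted p = 0.289). Kcna6 went the other way, from 1184 and 1164 in WT to 1008 and 1112 in RKO (-0.15, adjusted p = 0.341), with the RKO arrays wide apart. Kcna4 (0.0054) had overlapping arrays. Kcna2 has a second probe set above the filter, which stood at -0.05, so its probe sets differ in sign. The dim Kcna5 had intensities of 125.0 and 134 in WT and 132 and 126 in RKO.

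Kv2 channels carry the delayed rectifier current, and the silent subunits Kcng4, Kcns1, Kcns2 and Kcns3 give no current alone but modify Kv2. Of these 5 genes 0 passed (3 at an unadjusted p under 0.05, which 12.8% of all genes reached). Kcnb2, the Kv2 member, had intensities of 560 and 590 in WT and 512 and 519 in RKO, lower in both RKO arrays (-0.16, adjusted p = 0.260). Kcns2 had 253 and 286 in WT and 221 and 238 in RKO, also lower in both (-0.23, adjusted p = 0.179). It passed in 1 of its 10 alternatives, when each array was centred on its median (adjusted p = 0.0418). Kcns1 ran the other way, from 183 and 195 to 206 and 231 (0.21, adjusted p = 0.214). Kcng4 (0.13) was higher in both RKO arrays and Kcns3 (0.02) overlapped. The silent subunits thus spread from -0.23 to 0.21 with no common direction.

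Kv3 channels let neurons fire fast. Kcnc1 had intensities of 1569 and 1533 in WT and 1408 and 1472 in RKO (-0.11, adjusted p = 0.484). Kcnc2 (-0.05) was likewise lower in both RKO arrays, and Kcnc4 (0.01) overlapped. Pvalb, a marker of fast-spiking neurons, stood at 0.07. Of the EAG, ERG and ELK channels, which include the ERG channels that shape spike bursts, Kcnh7 had 635 and 643 in WT and 578 and 595 in RKO (-0.12, adjusted p = 0.379). Kcnh3 (0.11) was higher in both RKO arrays, and Kcnh1 (-0.01), Kcnh2 (-0.02) and Kcnh5 (-0.0055) overlapped. The subunits of the M-current, which muscarinic receptors shut, were lower in both RKO arrays without passing, at -0.08 for Kcnq3 and -0.11 for Kcnq5.

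**Figure D3:**
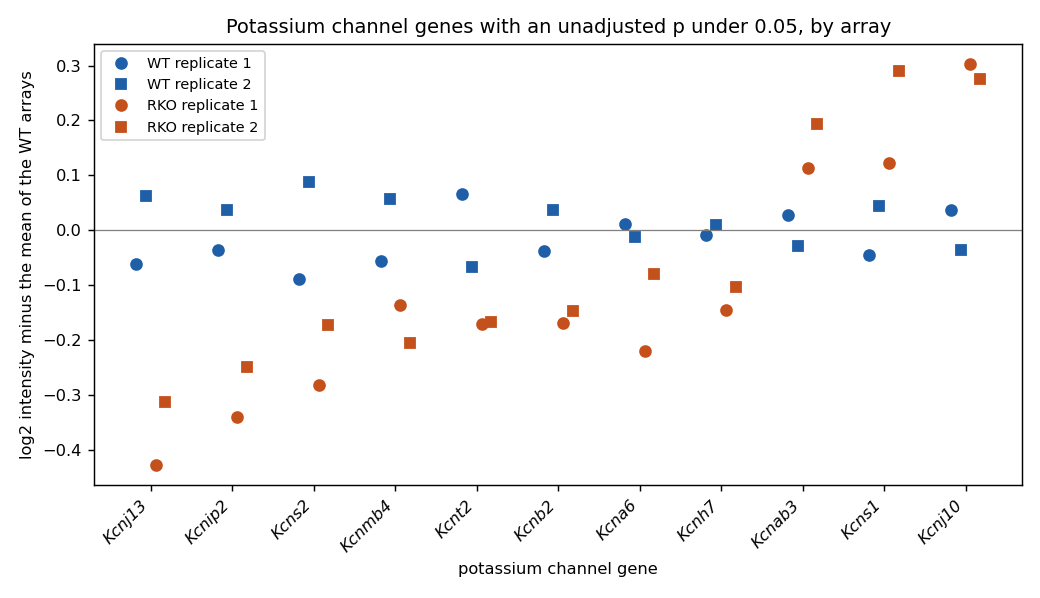
Log2 intensity of each array minus the mean of the WT arrays for the 11 potassium channel genes with an unadjusted p under 0.05; blue is WT, orange is RKO, circles are replicate 1 and squares replicate 2. The RKO arrays lie on 1 side of both WT arrays for all 11 genes, which such a p nearly requires, and are farthest from them for Kcnj13, Kcnip2 and Kcnj10.

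The Kir3 channels are opened by G proteins, and Kcnj6 is the subunit through which D2 autoreceptors slow dopamine neurons. Of 4 tested, 0 passed (0 at an unadjusted p under 0.05, beside 12.8% of all genes). Kcnj6 had intensities of 353 and 338 in WT and 343 and 351 in RKO, which overlap (0.0064, 95% interval -0.12 to 0.13). Kcnj3 had 1552 and 1559 in WT and 1463 and 1445 in RKO, lower in both RKO arrays (-0.10, adjusted p = 0.516), while Kcnj5 (-0.05) and Kcnj9 (-0.02) overlapped. In the same arrays the 9 dopamine neuron markers ran from -0.10 for Aldh1a1 to 0.72 for Th, with a median of 0.27.

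The Kir2 genes that were tested, which hold the resting potential, stood at -0.05 for Kcnj2 and -0.07 for Kcnj12. The dim Kcnj4 had intensities of 153 and 165 in WT and 168 and 156 in RKO. The Kir6 genes encode the pores of ATP-sensitive channels, which couple metabolism to firing, and each lies beside the gene of a sulfonylurea receptor it can assemble with. Kcnj11 had 453 and 440 in WT and 494 and 464 in RKO, above WT in both (0.10, 95% interval -0.03 to 0.23), and its neighbour Abcc8 stood at 0.10. Kcnj8, the subunit of pericytes, stood at 0.04 with overlapping arrays, and its neighbour Abcc9 at -0.09. Of 6 tested markers of pericytes and smooth muscle 1 was lower, Acta2 (-0.47), and 0 were higher, beside 0.964% and 0.640% of all genes. All 6 lay below 0, as did 56.8% of all genes.

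The K2P leak channels set the resting conductance. All 5 members lay under 0.1 in size, beside 76.3% of all genes. In limma 0 of the 5 passed, and 0 reached an unadjusted p under 0.05, beside 12.8% of all genes. Of the K2P genes outside the 54, 7 were tested and 2 lay under 0.1 in size. Those beyond it were Kcnk16 (0.18), Kcnk6 (0.13), Kcnk4 (-0.13), Kcnk7 (0.11) and Kcnk12 (0.11), and 0 passed (1, Kcnk16, at an unadjusted p under 0.05). The acid-sensitive channel genes Kcnk3 (0.02) and Kcnk9 (-0.06), the stretch-sensitive ones Kcnk2 (-0.04) and Kcnk10 (-0.05), and Kcnk1 (-0.03) did not pass. Kcnk9 was lower in both RKO arrays, and the arrays of the other 4 members overlapped. The widest of their 95% intervals, that of Kcnk10, ran from -0.18 to 0.09.

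Calcium-activated channels end bursts and set the pause after a spike. Kcnma1, the pore of the large-conductance (BK) channel, had 1795 and 1785 in WT and 1720 and 1744 in RKO (-0.05, adjusted p = 0.822). Its neuronal partner Kcnmb4 had 244 and 264 in WT and 231 and 220 in RKO, lower in both (-0.17, adjusted p = 0.258). Of the SK genes, Kcnn2 had 542 and 527 in WT and 578 and 586 in RKO, above WT in both (0.12, adjusted p = 0.394). Kcnn3, the SK channel of dopamine neurons, had 1111 and 1171 in WT and 1104 and 1158 in RKO, which overlap (-0.01, 95% interval -0.14 to 0.12), and Kcnn1 stood at -0.04. Of the sodium-activated channels, Kcnt2 had 374 and 341 in WT and 317 and 318 in RKO, lower in both (-0.17, adjusted p = 0.269), and Kcnt1 overlapped (-0.0034).

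**Figure D4:**
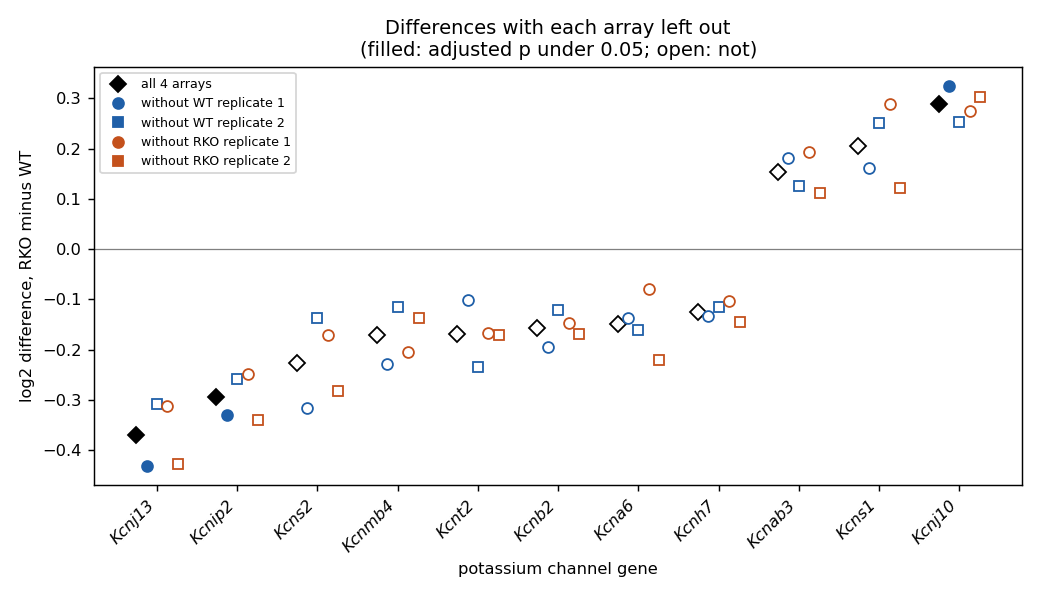
Log2 difference, RKO minus WT, of the same 11 genes with all 4 arrays (diamonds) and with each array left out (circles and squares); filled marks passed an adjusted p under 0.05 and open marks did not. Each gene kept its side of 0, and Kcnj10, Kcnj13 and Kcnip2 passed with all arrays and without WT replicate 1, and in none of the other 3 cases.

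Further potassium channel genes and auxiliary subunits outside the 54 were read from a separate list. Of 49 listed, 44 were measured, 14 lay below the filter and 30 were tested. By limma 0 of the 30 passed, beside 1.60% of all genes. An unadjusted p under 0.05 was reached by 4 of the 30, beside 12.8% of all genes. The median difference of the 30 was 0.06, beside -0.01 over all tested genes. Kcne1l, a single-span subunit of the KCNE family, had 254 and 274 in WT and 302 and 342 in RKO (0.28, adjusted p = 0.0850). Kcnf1, another silent Kv subunit, had 237 and 221 in WT and 205 and 191 in RKO (-0.21, adjusted p = 0.159). Kcnk16, a leak channel known from pancreas, stood at 0.18 near the filter (adjusted p = 0.379). Kcne1l passed with median centring, with an intensity trend, with the replicate block and without WT replicate 2, and Kcnk16 without WT replicate 2.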

How the data were processed

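Ventral midbrain RNA of 2 WT and 2 RKO samples was hybridised to 1 Affymetrix mouse array each. The authors deposited a normalized intensity for each probe set; the values show a linear scale. The submitters' processing notes name GCOS and RMA, with settings not given in the sources used here. RMA as usually run makes the arrays' distributions alike, which removes a shift common to most genes.

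Intensities were taken to log2 with no pseudocount. Of 35556 probe sets, 21789 had 1 symbol in the platform annotation, 1621 several and 12146 none; only the first were used as genes. The probe set of highest mean stood for a gene, and genes under the 40th percentile of the probe set means (log2 7.38) were left out, leaving 13587 of 19938. Differences, RKO minus WT, were fitted with lmFit and eBayes in limma 3.58.1 (R 4.3.3), two-sided, without covariates, and genes with a Benjamini-Hochberg adjusted p under 0.05 over all tested genes were called. The moderated errors rest on 2 residual and 8.73 prior degrees of freedom, and the number of arrays limits the precision. An exact permutation test of 2 against 2 cannot go below p = 0.333. The script was tested on simulated data.

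The 54 genes, their families and the other lists were chosen with earlier results of these data known, so no list was tested as a set. All members are named; those called, those with an unadjusted p under 0.05 and the 10 largest differences are given by array. Entrez identifiers matched RefSeq for 54 of 54 genes, 52 with 1 probe set and 2 with 2. Alternatives were the filter, median centring, an intensity trend in eBayes, a pseudocount of 16, the mean of a gene's probe sets, a replicate block and each array left out. Samples of a group were compared first, and at most 5 of their intensities were identical.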

Additional observations from a re-analysis of the deposited data

How the results depend on the processing

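The 11 channel genes given by array kept their side of 0 in all 116 alternative values; 12 of these lost the call, all for Kcnj10, Kcnj13 and Kcnip2, and 1, Kcns2 with median centring, gained it. Of the channel genes limma called 3, but 0 with no filter (9 at an unadjusted p under 0.05), 0 to 3 with each array left out (0, with 5, 7 and 8 at that p, without WT replicate 2, RKO replicate 1 and RKO replicate 2) and 2 to 4 under the other alternatives, the crossed pairing apart. Over all genes 218 were called, against 31 with no filter (25.8% of them higher, beside 39.9%), 455 with median centring (42.0% higher), 499 with an intensity trend, and 73 to 293 with each array left out (73 without RKO replicate 1 and 99 without RKO replicate 2). Of the other potassium channel genes 0 were called, against 1 with median centring, 1 with an intensity trend, 1 with the replicate block and 0 to 2 with each array left out. The median difference of the channel genes ran from -0.05 to 0.0035 with each array left out, and was above 0 without RKO replicate 1 alone. Nr1d1 stayed between -1.32 and -1.22 with each array left out, but its adjusted p, 0.00486 with all arrays, was 0.292 without RKO replicate 1 and 0.303 without RKO replicate 2, with the unfiltered probe sets of 1 symbol fitted together. The causes of these changes were not tested.

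The replicate numbers are not said to mark a shared litter, batch or day. The deviations of same-numbered arrays correlated at -0.11 over the tested genes. With the replicate block 259 genes were called, 3 of them channel genes, and Nr1d1 stood at -1.27 (adjusted p = 0.00632). A crossed pairing, chosen after seeing the data, called 696 genes, 5 of them channel genes, as a replicate block. Probe sets near the filter, such as those of Kcns1 and Kcnk16, carry signal close to that of dim probe sets.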
